A study of Mus musculus with 29 samples.

Results

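The 7 genes described here encode transcription factors that keep hepatocytes in their differentiated state: the forkhead factors Foxa1, Foxa2 and Foxa3, the cut-homeodomain factor Onecut1 (HNF6), and the nuclear receptors Nr1i2 (pregnane X receptor, PXR), Nr1i3 (constitutive androstane receptor, CAR) and Rxra (retinoid X receptor alpha). They were chosen by name and found in the table by their Ensembl identifiers, 7 of 54532 genes. All 7 were among the 15603 genes with enough counts to be tested, and none had fewer than 87 counts in any library. Their messenger RNA was measured by poly-A RNA-seq in the livers of obese male mice, in a study of the SUMO-deficient Prox1 K556R allele. Prox1 is itself a hepatocyte homeobox factor, and in the K556R form a lysine that can carry SUMO, a small protein modifier, is replaced. The 29 liver libraries fall into 4 groups: 8 fasted and 6 refed wild-type (WT) livers, and 7 fasted and 8 refed livers of Prox1_K556R mice. In the Prox1_K556R mice a conditional knock-in, limited to hepatocytes, was switched on by Cre recombination at 8 weeks of age. All groups then shared 18 weeks on a diet of 45% fat and 20% fructose, and livers were taken at zeitgeber time 15 to 17, in hours after lights on. Each group was spread over 2 batches as the labels name them, 15 libraries in batch 1 and 14 in batch 2. The sources used here do not give the promoter driving Cre, whether the WT mice received Cre, or the hours of fasting and refeeding. The sources do not say whether each replicate is its own animal, and p-values here reflect spread among libraries, which may be technical.

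FOXA proteins bind nucleosomal DNA and open enhancers of liver genes, and HNF6 acts with them on genes of glucose and bile acid metabolism. PXR and CAR sense drugs, bile acids and other small molecules and switch on cytochrome P450, conjugation and transport genes. Both bind DNA as heterodimers with RXR alpha, which is also the partner of many other nuclear receptors in liver. FOXA2 is known to respond to insulin signalling in liver, and CAR activity is known to rise with fasting.

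Coordinates are mm10, from GENCODE M21. Foxa1 (ENSMUSG00000035451) lies at chr12:57540628-57546916, Foxa2 (ENSMUSG00000037025) at chr2:148042877-148046969 and Foxa3 (ENSMUSG00000040891) at chr7:19013284-19023538, all on the minus strand. Onecut1 (ENSMUSG00000043013) lies at chr9:74861921-74891781 on the plus strand. Nr1i2 (ENSMUSG00000022809) lies at chr16:38248323-38294824 on the minus strand, Nr1i3 (ENSMUSG00000005677) at chr1:171213970-171220701 on the plus strand and Rxra (ENSMUSG00000015846) at chr2:27676440-27762957 on the plus strand. Of the Nr1i3 exon bases, 74.9% are shared with Tomm40l, a protein-coding gene on the opposite strand with 174 to 742 counts per library. Whether the counting used strand is not stated in the sources used here, so reads of this pair cannot be told apart and Nr1i3 values are uncertain. Onecut1 shares 52.8% of its exon bases with the lincRNA Gm20649 on its own strand, which was listed at 0 counts in all 29 libraries.

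The promoters below are shown because Foxa1, Foxa2 and Onecut1 varied together over the livers, and because Nr1i2 was the gene whose refeeding difference depended on the batch. Each is 300 bases long and ends 50 bases after an annotated start site, 5′ to 3′ on the gene's own strand, from RefSeq on build GRCm38.p6. All 7 genes matched that table, with 10 promoters between them, since Foxa2 has 3 listed starts and Rxra 2; the most upstream of the 3 Foxa2 starts is printed. Capitals mark matches on either strand to a forkhead motif (TGTTTNC), an HNF6 motif (ATTGAT), the nuclear receptor hexamer (AGGTCA), an E-box (CACGTG) or a TATA box (TATAAA). The Foxa1 promoter is chr12:57546062-57546361, that of Foxa2 chr2:148046920-148047219, that of Onecut1 chr9:74861671-74861970 and that of Nr1i2 chr16:38294775-38295074.
Foxa1: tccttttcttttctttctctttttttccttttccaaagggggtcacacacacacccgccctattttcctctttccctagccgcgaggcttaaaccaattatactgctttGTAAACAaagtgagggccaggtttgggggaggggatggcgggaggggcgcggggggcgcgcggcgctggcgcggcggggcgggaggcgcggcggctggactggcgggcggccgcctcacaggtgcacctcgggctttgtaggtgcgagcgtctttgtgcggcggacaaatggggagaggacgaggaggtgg
Foxa2: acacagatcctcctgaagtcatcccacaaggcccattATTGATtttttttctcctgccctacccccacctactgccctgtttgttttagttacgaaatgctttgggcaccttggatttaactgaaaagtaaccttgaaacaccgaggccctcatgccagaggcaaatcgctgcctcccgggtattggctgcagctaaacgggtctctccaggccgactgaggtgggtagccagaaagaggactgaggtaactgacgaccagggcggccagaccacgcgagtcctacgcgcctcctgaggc
Onecut1: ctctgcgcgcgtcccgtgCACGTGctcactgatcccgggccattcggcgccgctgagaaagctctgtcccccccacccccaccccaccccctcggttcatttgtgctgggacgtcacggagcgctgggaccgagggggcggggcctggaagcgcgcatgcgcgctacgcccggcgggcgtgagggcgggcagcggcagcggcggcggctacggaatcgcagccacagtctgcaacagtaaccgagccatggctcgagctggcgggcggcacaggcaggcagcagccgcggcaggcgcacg
Nr1i2: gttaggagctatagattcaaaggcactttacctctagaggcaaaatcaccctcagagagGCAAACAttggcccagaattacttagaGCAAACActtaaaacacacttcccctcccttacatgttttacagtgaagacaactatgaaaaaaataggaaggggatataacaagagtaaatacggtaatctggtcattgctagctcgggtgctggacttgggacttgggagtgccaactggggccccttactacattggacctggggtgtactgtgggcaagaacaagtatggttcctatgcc

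The Foxa1 promoter held 1 forkhead match, beginning 141 bases before the start, and that of Nr1i2 held 2, at 191 and 164 bases. The printed Foxa2 promoter held 1 HNF6 match, 213 bases before its start, and Onecut1 held 1 E-box, 232 bases before its start. Among the promoters not printed, Nr1i3 held a forkhead match and an E-box, Foxa3 a TATA box 36 bases before its start, the most downstream Foxa2 promoter a TATA box at 208 bases, and the downstream Rxra promoter a forkhead match and 2 hexamers. The middle Foxa2 promoter and the upstream Rxra promoter held no match. No match overlapped another. Of all 32851 promoters of this length in the RefSeq table, 20.5% held the forkhead motif, 7.5% the HNF6 motif, 16.3% the hexamer, 7.2% the E-box and 13.6% the TATA box. A match describes these letters only, and binding was not measured.

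Rxra was the most abundant of the 7 messages and Onecut1 the least. Per kilobase of exon, over all 29 libraries, Rxra stood at 81.7 CPM (read counts scaled to a common library size, with TMM factors) per kb (SD 11.1) and Nr1i2 at 50.1 (SD 11.3). The next level was that of Foxa3 at 20.6 (SD 4.34), followed by Nr1i3 at 15.5 (SD 2.78) and Foxa2 at 15.1 (SD 5.46), which lay within their spread of each other. Foxa1 followed at 8.62 (SD 3.42) and Onecut1 at 3.69 (SD 3.28). The levels of Nr1i3 and Onecut1 depend on the length used: over exon bases shared with no other gene they stood at 61.5 and 7.81 CPM per kb. Whether reads from the shared bases are in the counts is not stated in the sources used here, so both levels are uncertain. The spread over livers differed widely between the genes. The coefficient of variation of CPM was 13.6% for Rxra, 18% for Nr1i3, 21.1% for Foxa3, 22.6% for Nr1i2, 36.3% for Foxa2 and 39.7% for Foxa1, while Onecut1 reached 89% and spanned 14.7-fold from its lowest to its highest liver.

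Libraries held 14385218 to 27278251 gene counts, from 19065976 in batch 1 and from 14385218 in batch 2, and batch made up 97.2% of the first principal component, which held 37.9% of the variance. Mean Prox1 CPM lay between 149.7 (refed K556R, SD 25.5, n = 8) and 186 (fasted K556R, SD 12.3, n = 7) over the 4 groups, and whole-gene counts do not show which allele is expressed. The 11 matched hepatocyte markers averaged log2 CPM 11.17 to 11.65 in every library. Of 11 listed pancreas and gut markers, 3 had enough counts to be tested, among them Cela1 (mean 12.9 CPM) and Fabp2 (mean 146 CPM). The pancreatic genes Cpb1 and Amy2a5 were at 0 in all 29. In tissue RNA, fewer cells of a type and less RNA per cell cannot be told apart. Before the results, 2 libraries stand apart for several of the 7 genes, and were singled out after their values were seen. The refed WT liver numbered 1 in batch 2 had the highest CPM of all 29 livers for Foxa1 (75.8), Foxa2 (78.6) and Foxa3 (70.9), and 48.2 for Onecut1; it was also the library with the lowest total. The fasted K556R liver numbered 2 in batch 2 had the highest Onecut1 of all (59.7) and the next-highest Foxa1 (54.1) and Foxa2 (66.1). Values without both are given where a refeeding call or its direction rests on them.

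**Figure D1:**
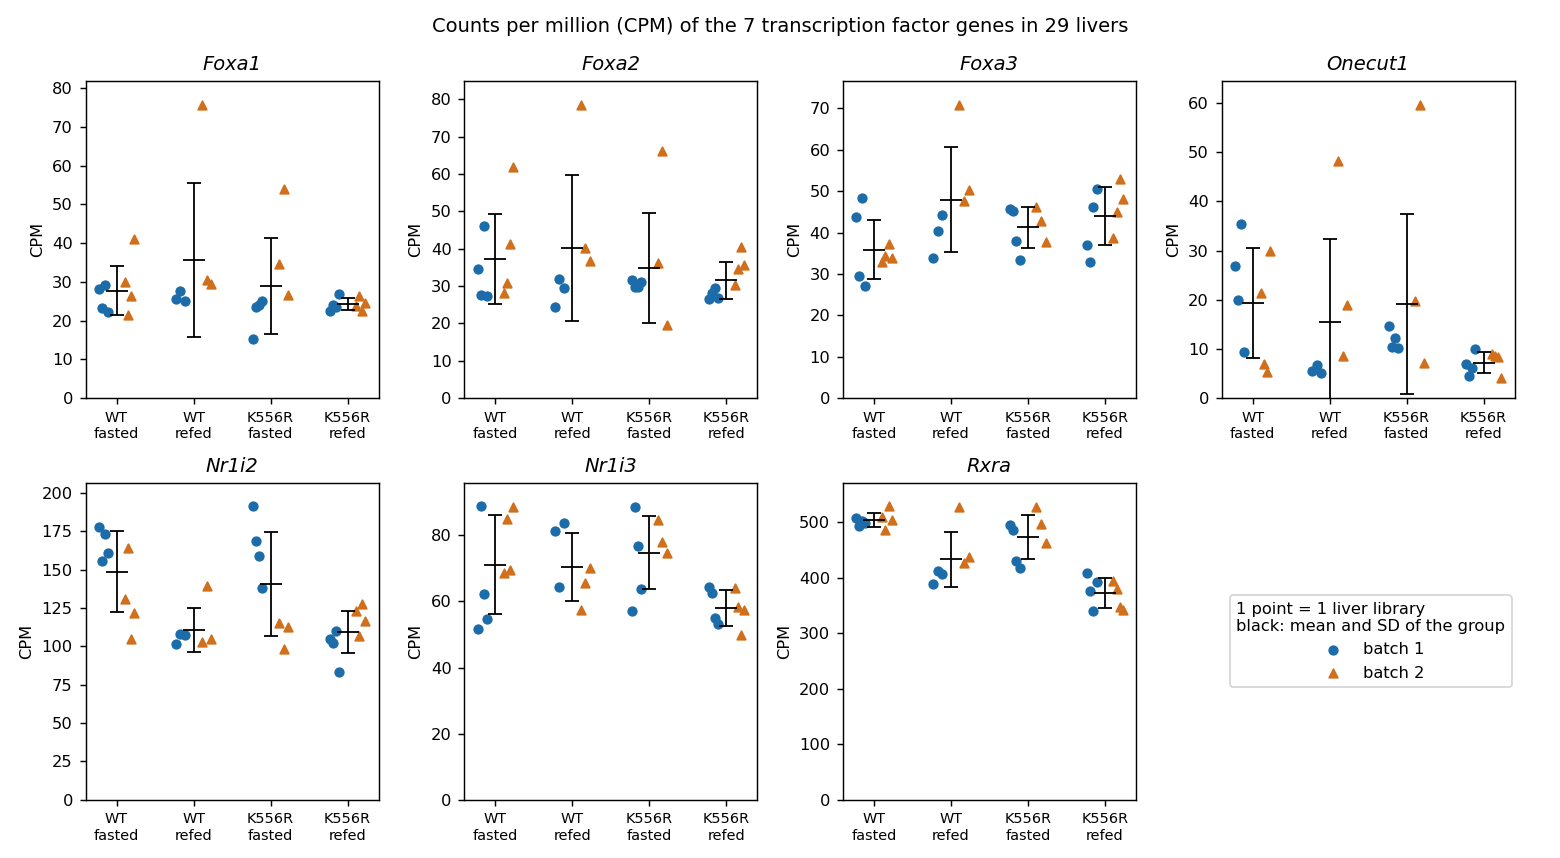
CPM of each of the 7 genes on a linear axis from 0, by genotype and feeding group, with 1 point per liver library, circles for batch 1, triangles for batch 2, and black bars for the group mean and SD (the lower bar of Onecut1 in refed WT is cut at 0). A single refed WT triangle stands at 75.8 CPM for Foxa1, 78.6 for Foxa2 and 70.9 for Foxa3, and the refed livers of both genotypes lie below the fasted ones of their genotype for Rxra except that same liver at 527 CPM.

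Refeeding changed 5 of the 7 genes in at least 1 genotype, and K556R changed none in either feeding state (edgeR and DESeq2). In WT livers, refeeding raised Foxa3 and lowered Nr1i2 and Rxra, so 3 of 7 were called at an adjusted p below 0.05 (edgeR quasi-likelihood test, Benjamini-Hochberg over all genes) where 10.7% of all tested genes were (5.25% up and 5.43% down). In K556R livers, refeeding lowered Onecut1, Nr1i3 and Rxra, again 3 of 7, where the share of all genes called was 15.4% (6.97% up and 8.39% down). The median log2 fold change of the 7 was -0.01 in WT and -0.33 in K556R, against 0.00 and 0.01 over all genes. The calls of Foxa3 and Onecut1 were lost without the 2 libraries that stand apart. Rxra was the only gene of the 7 called in both genotypes by edgeR. In WT, all 12 macrophage markers had a negative refeeding estimate (median -0.28; 0 called and 0 below an unadjusted p of 0.05 by edgeR, 0 called by DESeq2), and their part in the result was not tested. Also negative in WT were 8 of 9 tested cholangiocyte (median -0.21), 8 of 12 stellate cell (median -0.08) and 7 of 10 endothelial markers (median -0.08). Positive in WT were 6 of 11 hepatocyte (median 0.04), 5 of 9 tested lymphocyte (median 0.05) and 2 of 3 tested neutrophil markers (median 0.635). In K556R, 9 of 12 macrophage markers had a negative refeeding estimate (median -0.07). There, 11 of 12 stellate cell and fibroblast markers (median 0.18) and 8 of 9 tested cholangiocyte markers (median 0.11) had a positive one. Of the former, 1 was called higher by edgeR and 1 by DESeq2, the edgeR call being Lrat (0.58, SE 0.17, adjusted p = 0.0187), a retinol-esterifying enzyme of stellate cells. Of the latter 0 were called by either tool, and 0 were below an unadjusted p of 0.05 by edgeR. Summed stellate cell markers ran from 308 to 605 CPM in fasted and 246 to 598 in refed K556R livers, and cholangiocyte markers from 74.2 to 154 and 89.3 to 203; their part in the result was not tested.

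**Figure D2:**
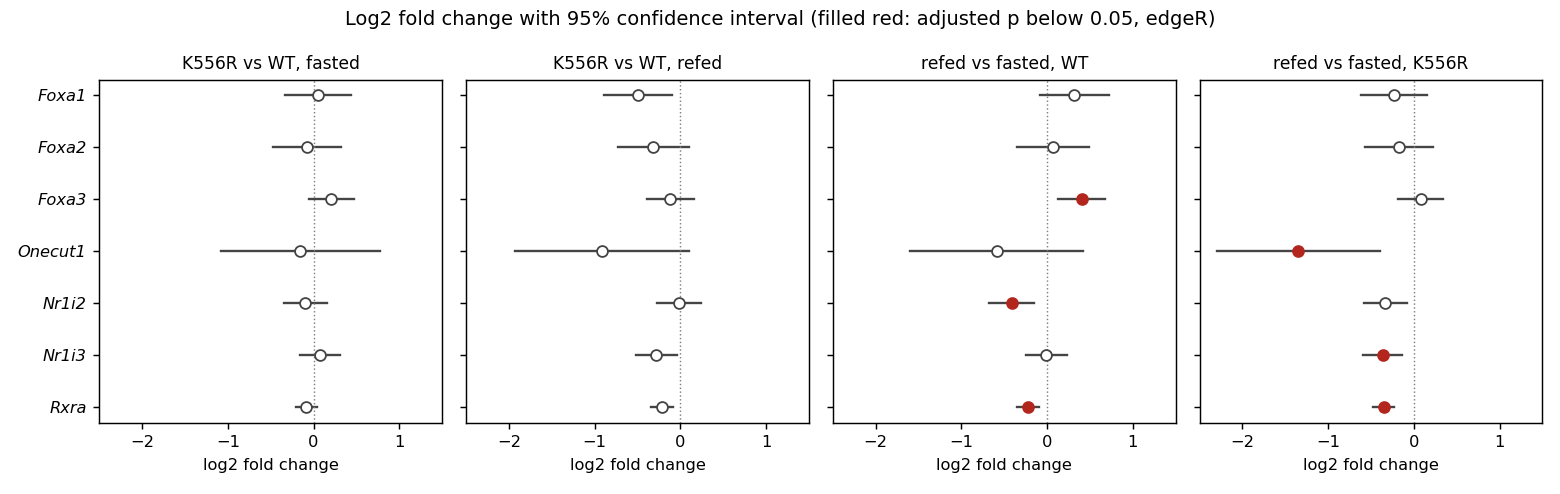
Log2 fold change of each of the 7 genes (horizontal axis, with its 95% confidence interval) for K556R against WT in fasted and in refed livers and for refed against fasted in each genotype, from the edgeR fit of all 29 libraries. Filled red points passed an adjusted p of 0.05: none in the genotype panels, Foxa3, Nr1i2 and Rxra for refeeding in WT, and Onecut1, Nr1i3 and Rxra for refeeding in K556R.

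Among the forkhead genes, Foxa3, with the highest mean CPM of the 3, was the only one with a called change. In batch 1, Foxa3 had 43.7, 29.4, 48.2 and 27.2 CPM in fasted WT livers and 33.9, 40.4 and 44.3 in refed WT livers, which overlap. In batch 2 it had 32.9, 34.3, 37.3 and 33.8 in fasted and 70.9, 47.5 and 50.3 in refed WT livers, where every refed liver lay above every fasted one. Across both batches the refeeding difference in WT was log2 0.40 (SE 0.13, adjusted p = 0.0487, edgeR). Without the 2 libraries that stand apart it was 0.28 (SE 0.13, adjusted p = 0.186, edgeR) and the call was lost. Leaving out 1 library at a time kept it in 12 of 29 fits, with the highest adjusted p, 0.178 (edgeR), without the refed WT liver numbered 1 of batch 2. Fitted within a batch, it was 0.10 (SE 0.20, adjusted p = 0.867, edgeR) in batch 1 and 0.69 (SE 0.13, adjusted p = 0.00827, edgeR) in batch 2; the batch difference over both genotypes, batch 1 minus batch 2, was -0.35 (SE 0.17, adjusted p = 0.28, edgeR). In K556R livers Foxa3 ran from 33.3 CPM through a median of 42.8 to 46.1 when fasted and from 33 through 45.6 to 52.9 when refed. These groups overlap, and the refeeding difference was 0.08 (SE 0.13, adjusted p = 0.748, edgeR).

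Foxa1, which with Foxa2 is a pioneer factor of liver development, passed no test. Its lowest, median and highest CPM were 21.4, 27.2 and 41 in fasted WT, 24.9, 28.5 and 75.8 in refed WT, 15.3, 25.2 and 54.1 in fasted K556R, and 22.4, 23.9 and 26.9 in refed K556R livers. The refed K556R livers were the most alike of the groups, with a coefficient of variation of 6.7% against 55.6% in refed WT. The latter includes the liver at 75.8 CPM, and the other refed WT livers ran only from 24.9 to 30.4. The K556R difference in refed livers was log2 -0.49 (SE 0.20, adjusted p = 0.484, edgeR). It was -0.20 (SE 0.13, adjusted p = 0.776, edgeR) without the 2 libraries that stand apart.

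Foxa2, a factor known for regulating fasting metabolism, passed none either. It had 27.3, 32.6 and 61.9 CPM as its lowest, median and highest values in fasted WT livers, 24.4, 34.4 and 78.6 in refed WT, 19.6, 31.1 and 66.1 in fasted K556R and 26.5, 29.8 and 40.6 in refed K556R livers. All 4 groups overlap. The refeeding difference was 0.07 (SE 0.20, adjusted p = 0.894, edgeR) in WT and -0.17 (SE 0.20, adjusted p = 0.623, edgeR) in K556R, with 95% intervals of -0.35 to 0.48 and -0.57 to 0.23.

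Onecut1 was lower after refeeding in K556R livers and, within batch 1, in WT livers as well. In batch 1 its CPM was 26.8, 20, 35.4 and 9.36 in fasted WT livers against 5.45, 6.69 and 5.09 in refed WT livers. In the same batch it was 14.7, 10.4, 12.1 and 10.2 in fasted against 6.9, 4.52, 6.15 and 10 in refed K556R livers. In batch 1, then, every refed liver lay below every fasted liver of its genotype. In batch 2 the WT livers had 21.3, 6.9, 5.39 and 29.9 CPM when fasted and 48.2, 8.6 and 18.9 when refed, which overlap. The K556R livers of batch 2 had 19.8, 59.7 and 7.06 when fasted and 9.01, 8.58, 8.41 and 4.07 when refed, so that the lowest fasted liver lay within the refed range.

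Over all libraries, refeeding in K556R lowered Onecut1 by log2 -1.35 (SE 0.47, adjusted p = 0.048, edgeR), a call lost without the 2 libraries that stand apart, where it was -0.81 (SE 0.36, adjusted p = 0.152, edgeR). Leaving out 1 library at a time kept this call in 9 of 29 fits, and without the fasted K556R liver numbered 2 of batch 2 the value was -0.84 (SE 0.44, adjusted p = 0.241, edgeR). In WT the difference was -0.59 (SE 0.49, adjusted p = 0.529, edgeR) with every library and -1.15 (SE 0.39, adjusted p = 0.0599, edgeR) without those 2. Within batch 1 alone it was -1.98 (SE 0.35, adjusted p = 0.00273, edgeR) in WT and -0.78 (SE 0.31, adjusted p = 0.138, edgeR) in K556R. Within batch 2 alone it was 0.65 (SE 0.68, adjusted p = 0.671, edgeR) in WT and -1.96 (SE 0.70, adjusted p = 0.0787, edgeR) in K556R. The WT estimate thus changed sign between the batches, while the K556R estimate was more negative in batch 2. The test of the batch difference averages the genotypes, so these opposite shifts partly cancel in it. It gave -0.75 (SE 0.58, adjusted p = 0.513, edgeR), and a batch difference in WT alone was not tested. The WT fit of batch 2 includes the refed liver at 48.2 CPM and was not repeated without it. The other refed WT livers of batch 2 (8.6 and 18.9 CPM) lay within the fasted WT range there (5.39 to 29.9). Onecut1 had the highest coefficient of variation of the 7 in each of the 4 groups. It ran from 30% in refed K556R to 108.6% in refed WT livers, the latter with the liver at 48.2 CPM included.

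Nr1i2 had the clearest dependence on batch. In batch 1, fasted WT livers had 178, 156, 173 and 161 CPM and refed WT livers 102, 108 and 107. Fasted K556R livers of that batch had 191, 168, 159 and 138 CPM and refed ones 105, 102, 110 and 83. In batch 1 every refed liver was below every fasted liver, in both genotypes. In batch 2, fasted WT livers had 131, 164, 105 and 122 CPM and refed ones 103, 139 and 105, while K556R livers had 115, 98.2 and 112 fasted and 123, 106, 128 and 116 refed. The groups of batch 2 overlap.

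The pooled refeeding difference of Nr1i2 was log2 -0.42 (SE 0.13, adjusted p = 0.0342, edgeR) in WT and -0.33 (SE 0.12, adjusted p = 0.0648, edgeR) in K556R. Within batch 1 it was -0.65 (SE 0.11, adjusted p = 0.00217, edgeR) in WT and -0.70 (SE 0.10, adjusted p = 0.000282, edgeR) in K556R. Within batch 2 it was -0.18 (SE 0.14, adjusted p = 0.539, edgeR) and 0.10 (SE 0.14, adjusted p = 0.682, edgeR). The difference between the batches, averaged over the genotypes, was -0.66 (SE 0.13, adjusted p = 0.00644, edgeR), and it was called in all 29 fits that left out 1 library. It was the only 1 of the 7 genes called in that test, where 2.74% of all genes were called, 1.74% higher and 1% lower. The refeeding call in WT was kept in 19 of 29 such fits (adjusted p up to 0.0903, edgeR, without the refed liver numbered 1 of batch 1), and the K556R difference was called without the 2 libraries that stand apart (-0.40, SE 0.12, adjusted p = 0.0287, edgeR) and by DESeq2 (adjusted p = 0.0459). For this batch difference, all 12 macrophage markers had a negative estimate (median -0.51) and so did 8 of 9 tested lymphocyte markers (median -0.83). By edgeR 0 of either list were called, with 0 and 1 below an unadjusted p of 0.05; DESeq2 was not run on this test. Estimates were also negative for 8 of 10 endothelial (median -0.21) and 8 of 11 hepatocyte markers (median -0.11), but positive for 2 of 3 tested neutrophil markers (median 0.45). Over both batches, summed macrophage markers ran from 211 to 766 CPM in fasted WT, 237 to 423 in refed WT, 203 to 631 in fasted K556R and 302 to 520.0 in refed K556R livers. In batch 1 these ranges were 294 to 766, 342 to 375, 409.5 to 591 and 302 to 491.5. In batch 2 they were 211 to 468, 237 to 423, 203 to 631 and 397 to 520. Summed lymphocyte markers stayed between 2.26 and 16.8 CPM, and the part of any of these lists in the result was not tested.

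**Figure D3:**
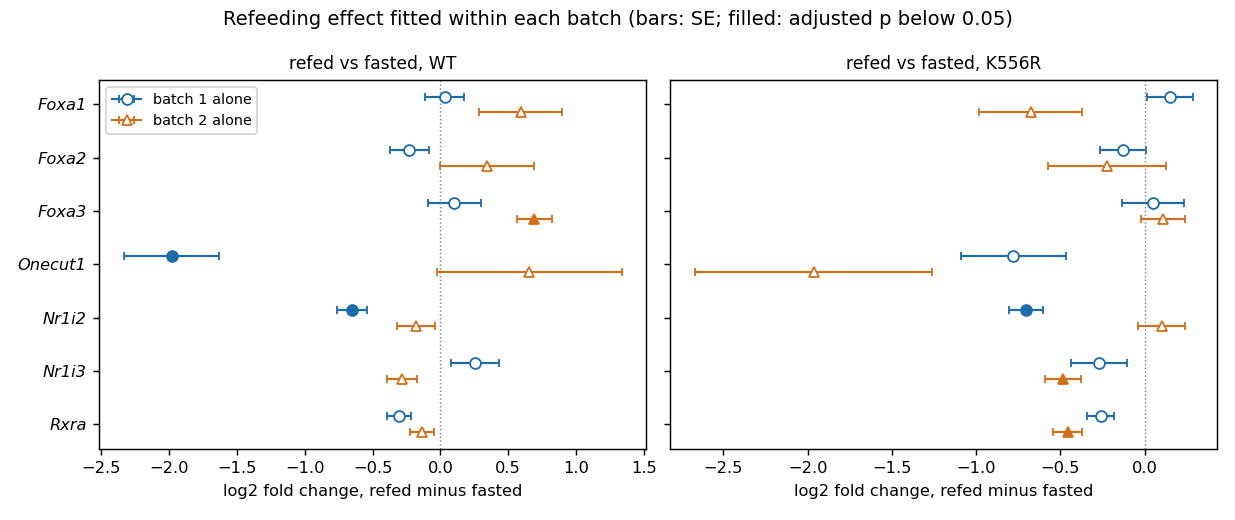
Refeeding effect on each gene (log2 fold change, refed minus fasted, with its SE) in WT livers on the left and K556R livers on the right, fitted within batch 1 (circles) and within batch 2 (triangles), filled where the adjusted p is below 0.05. Nr1i2 stands at -0.65 and -0.70 in batch 1 and at -0.18 and 0.10 in batch 2, and the WT estimate of Onecut1 lies at -1.98 in batch 1 and 0.65 in batch 2. That batch 2 estimate includes the refed WT liver at 48.2 CPM, a library that stands apart.

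Nr1i3 fell on refeeding in K556R livers and passed no test in WT livers. Its lowest, median and highest CPM were 57.1, 76.6 and 88.5 in fasted K556R and 49.8, 57.8 and 64.5 in refed K556R livers, against 51.7, 69.1 and 88.8 in fasted WT and 57.5, 67.8 and 83.7 in refed WT. The K556R groups overlap only through fasted livers of batch 1. In batch 2 the fasted K556R livers had 84.6, 78 and 74.7 CPM and the refed ones 64.1, 58.4, 49.8 and 57.3. The refeeding difference was log2 -0.37 (SE 0.11, adjusted p = 0.0245, edgeR) in K556R and -0.01 (SE 0.12, 95% interval -0.25 to 0.23, adjusted p = 0.974, edgeR) in WT. The genotypes were not shown to differ in it: the interaction was -0.36 (SE 0.16, 95% interval -0.69 to -0.02, adjusted p = 0.9999, edgeR). The K556R call was kept in 26 of 29 fits that left out 1 library, and lost without fasted K556R livers 2 of batch 1 or 1 of batch 2, or refed K556R liver 3 of batch 2 (adjusted p 0.0587 to 0.0754, edgeR). Within a batch the K556R difference was -0.27 (SE 0.17, adjusted p = 0.347, edgeR) in batch 1 and -0.48 (SE 0.11, adjusted p = 0.00956, edgeR) in batch 2. Tomm40l, whose exons overlap, fell as well, by -0.44 (adjusted p = 0.018, edgeR) in WT and -0.75 (adjusted p = 3.2e-05, edgeR) in K556R.

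Rxra, the shared heterodimer partner, had the narrowest spread of the 7 over all livers, and fell on refeeding in both genotypes. Its lowest, median and highest CPM were 487, 504 and 529 in fasted WT livers and 389, 420 and 527 in refed WT livers. In K556R livers they were 418, 487 and 529 when fasted and 340, 378 and 410 when refed. No refed K556R liver reached the lowest fasted K556R liver, and in WT only the liver numbered 1 of batch 2 did so. Refeeding lowered Rxra by log2 -0.22 (SE 0.06, adjusted p = 0.0202, edgeR) in WT, a change of -14.2%, and by -0.35 (SE 0.06, adjusted p = 0.000115, edgeR) in K556R, a change of -21.5%. Without the 2 libraries that stand apart these were -0.28 (SE 0.06, adjusted p = 0.00292, edgeR) and -0.33 (SE 0.06, adjusted p = 0.000128, edgeR). The K556R call was kept in all 29 fits that left out 1 library and the WT call in 25; the latter was lost without any of the 3 refed WT livers of batch 1 or liver 2 of batch 2 (adjusted p 0.0503 to 0.0755, edgeR). Within a batch the WT difference was -0.30 in batch 1 (SE 0.09, adjusted p = 0.057, edgeR) and -0.14 in batch 2 (SE 0.09, adjusted p = 0.449, edgeR). In K556R it was -0.26 in batch 1 (SE 0.08, adjusted p = 0.0552, edgeR) and -0.46 in batch 2 (SE 0.09, adjusted p = 0.00398, edgeR).

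By edgeR, K556R against WT gave no call for any of the 7 genes, whether fasted, refed or averaged over both states; DESeq2 called Rxra in the average. In fasted livers 3 of the 7 estimates were positive and 4 negative, with a median of -0.07, and 0 of 7 were called or below an unadjusted p of 0.05 by edgeR, where 0.103% of all tested genes were called; DESeq2 also called 0. In refed livers all 7 estimates were negative, with a median of -0.28 against 0.00 over all genes. By edgeR 0 of 7 and 0% of all genes were called, with 3 of 7 and 1319 of all genes below an unadjusted p of 0.05, while DESeq2 called 0 of 7 and 41 of all genes. The 3 were Foxa1, Nr1i3 (-0.28, SE 0.12, adjusted p = 0.504, edgeR) and Rxra (-0.21, SE 0.06, adjusted p = 0.286, edgeR). Refed WT livers had 433 CPM of Rxra (SD 49.1, n = 6) and refed K556R livers 373 (SD 26.3, n = 8), and these ranges overlap. Without the 2 libraries that stand apart the Rxra estimate was -0.15 (SE 0.06, adjusted p = 0.576, edgeR), and the sign of Foxa3 turned, from -0.12 to 0.02.

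Averaged over both feeding states, Rxra was the gene nearest to a call. Its K556R difference was -0.15 (SE 0.04, adjusted p = 0.0774, edgeR; 1 of 7 below an unadjusted p of 0.05), where 1.24% of all genes were called. DESeq2 called it (-0.15, adjusted p = 0.0288). It was -0.11 in batch 1 (SE 0.06, adjusted p = 0.412, edgeR) and -0.18 in batch 2 (SE 0.06, adjusted p = 0.521, edgeR). For the test of whether the genotype effect differs between feeding states, edgeR called 0 of 7 genes and 0% of all genes (1 of 7 and 440 of all below an unadjusted p of 0.05, and 0 by DESeq2). For the test of whether it differs between batches, edgeR likewise called 0 of 7 and 0% of all genes, with 0 of 7 and 1358 of all below an unadjusted p of 0.05; DESeq2 was not run on it. In refed livers, most macrophage, cholangiocyte and stellate cell markers had estimates of the opposite sign to those of the 7 genes, while endothelial and lymphocyte markers were split. All 12 macrophage markers (median 0.29), 9 of 9 tested cholangiocyte markers (median 0.42) and 11 of 12 stellate cell and fibroblast markers (median 0.23) had a positive K556R estimate. By edgeR 0 of each list were called, with 0, 1 and 1 below an unadjusted p of 0.05, and DESeq2 called 0. Positive estimates were held by 6 of 10 endothelial (median 0.01), 5 of 9 tested lymphocyte (median 0.08) and 2 of 3 tested neutrophil markers (median 0.02). The 1 tested adipocyte marker was negative (-0.66). Of the 11 hepatocyte markers, 10 had a negative estimate (median -0.08). Summed macrophage markers in refed livers are given above, and overlap. Summed cholangiocyte markers ran from 66.2 to 154 CPM in refed WT and 89.3 to 203 in refed K556R livers, and stellate cell markers from 284 to 519 and from 246 to 598. Their part in the result was not tested.

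Beyond genotype and feeding, Foxa1, Foxa2 and Onecut1 varied together over the livers, more so in batch 2 than in batch 1. Relations were computed on log2 CPM centred on the mean of each group within each batch, over 29 livers and 21 pairs, with permutation p-values adjusted by Benjamini-Hochberg. The permutations moved values across groups and batches alike, and did not allow for the means removed or for spread that differed between batches. These p-values therefore tend to be too small, and pairs that passed near the threshold are uncertain. Foxa1 and Foxa2 had a Pearson r of 0.78 (permutation p = 1e-05, the smallest these resamples can give, adjusted 0.00021) and a Spearman's rho of 0.56 (permutation p = 0.00176, adjusted 0.0123). Within a batch, r was 0.36 in the 15 livers of batch 1 and 0.85 in the 14 of batch 2. Foxa1 and Onecut1 had an r of 0.73 (permutation p = 3e-05, adjusted 0.00021) and a rho of 0.61 (permutation p = 0.00064, adjusted 0.011), with r 0.28 in batch 1 and 0.83 in batch 2. These 2 relations were thus weak in batch 1, and the difference between the batches was not tested. Foxa2 and Onecut1 had an r of 0.70 (permutation p = 2e-05, adjusted 0.00021) and a rho of 0.47 (permutation p = 0.0107, adjusted 0.0451), with r 0.61 in batch 1 and 0.72 in batch 2. Their rho was 0.36 in batch 1 and 0.57 in batch 2, so by rho this relation was weak in batch 1 too. Without the 2 livers farthest from the median of the gene named first, the 3 values of r were 0.67, 0.62 and 0.54, and without the 2 libraries that stand apart they were 0.67, 0.62 and 0.56.

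Foxa2 and Foxa3 also passed, by the same permutations, with an r of 0.51 (permutation p = 0.0043, adjusted 0.0226) and a rho of 0.59 (permutation p = 0.00105, adjusted 0.011). This held in size within each batch, at 0.69 and 0.61, and was 0.58 without the 2 farthest livers. Foxa1 and Nr1i2 ran in opposite directions, with an r of -0.50 (permutation p = 0.00597, adjusted 0.0251; -0.50 in batch 1, -0.51 in batch 2, and -0.45 without the 2 farthest), while rho missed the threshold at -0.44 (permutation p = 0.0188, adjusted 0.0563). Within a batch, the rho of Foxa1 and Nr1i2 was -0.27 in batch 1 and -0.48 in batch 2. Onecut1 and Rxra passed by rho (0.49, permutation p = 0.00742, adjusted 0.039) and missed the threshold by r (0.42, permutation p = 0.0238, adjusted 0.0713). Of the 21 pairs, 5 passed by r and 4 of these by rho as well, on p-values that tend to be too small. No pair with Nr1i3 passed, with r between -0.34 and 0.02, although with CPM on total counts Foxa3 and Nr1i3 did (r -0.50, adjusted permutation p = 0.0256). On that scale Foxa2 and Foxa3 lost their call (r 0.45, adjusted permutation p = 0.05). With library means subtracted, 4 more pairs passed by r: Foxa1 and Rxra (0.44), Foxa3 and Onecut1 (0.46), Foxa3 and Rxra (0.46), and Onecut1 and Rxra (0.46).

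**Figure D4:**
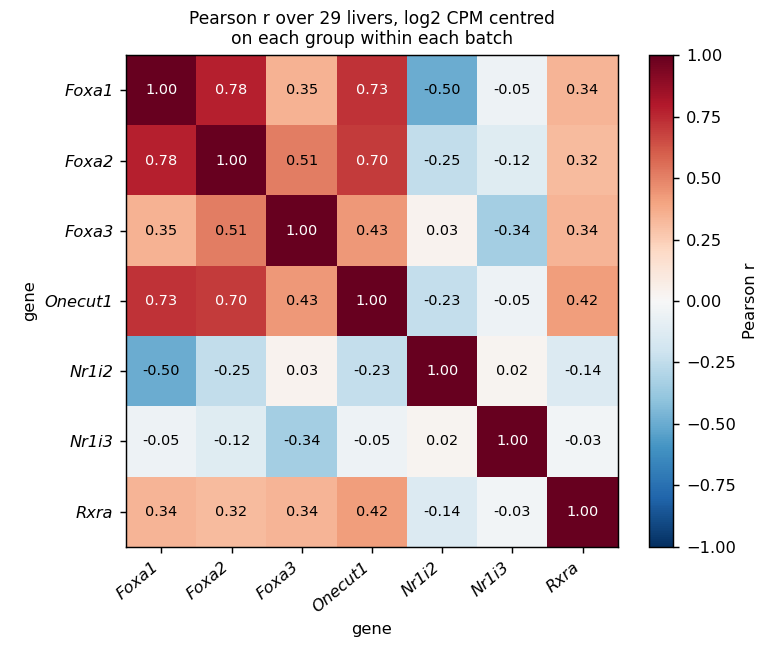
Pearson r between each pair of the 7 genes over 29 livers, on log2 CPM centred on the mean of each genotype and feeding group within each batch, from blue (-1) to red (1). The block of Foxa1, Foxa2 and Onecut1 holds 0.78, 0.73 and 0.70, and the Nr1i3 row lies between -0.34 and 0.02.

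Each gene was compared with 8457 genes for the pattern of its log2 CPM over the 29 livers after batch means were removed; this includes the group differences, and is a description with no test. The genes most like Foxa1 were Hspa1b (r 0.82), an inducible heat shock protein, Ccdc117 (0.78) and Hikeshi (0.78), a nuclear carrier of that heat shock protein family. Those most like Foxa2 were Phlda1 (0.82), the forkhead gene Foxq1 (0.81) and Cish (0.79), an inhibitor of cytokine signalling. Among the genes most like Foxa3 were Pak1ip1 (0.77) and Arpc5l (0.70). Onecut1 was most like Arid5b (0.85), E2f8 (0.80) and Rlf (0.79). The highest values of r were those of Nr1i2 and Rxra: Nr1i2 with Tead1 (0.92), Aifm2 (0.91) and Slc25a51 (0.91), and Rxra with Plpbp (0.92), Lims2 (0.91) and Hyal1 (0.91). Nr1i3 was most like Ppm1a (0.76), Upb1 (0.75) and Abat (0.74), the last 2 being enzymes of pyrimidine and GABA breakdown.

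Genes that CAR and PXR are known to switch on were read beside the receptors, 33 tested of 36 listed. Refeeding raised 2 and lowered 2 of them in WT and raised 1 and lowered 5 in K556R (medians 0.06 and -0.15), that is 4 and 6 of 33, near the 10.7% and 15.4% of all genes called. Without the 2 libraries that stand apart it raised 2 and lowered 4 in WT and raised 1 and lowered 6 in K556R, where 10.5% and 14% of all genes were called. In K556R the counts differed by batch, with 1 raised and 6 lowered of 34 tested in batch 1 alone and 10 raised and 4 lowered of 33 in batch 2 alone. The shares of all genes called in those 2 fits were 9.81% and 12.5%. Por, the electron donor of microsomal P450 enzymes, fell in both, by -0.91 (SE 0.19, adjusted p = 0.0016, edgeR) and -0.99 (SE 0.18, adjusted p = 0.000233, edgeR). Gadd45b, a stress-response gene and CAR cofactor, also fell in both, by -1.39 (adjusted p = 0.00611, edgeR) and -1.70 (adjusted p = 0.000278, edgeR). Cyp2b10, the classical CAR target, fell in K556R by -2.56 (SE 0.67, adjusted p = 0.0074, edgeR), as did Alas1, the first enzyme of haem synthesis, by -1.02 (SE 0.27, adjusted p = 0.00878, edgeR). Both were called in WT too without the 2 libraries that stand apart, Cyp2b10 at -2.23 (SE 0.62, adjusted p = 0.0181, edgeR) and Alas1 at -0.98 (SE 0.30, adjusted p = 0.035, edgeR). In WT, Cyp2c55 rose by 1.04 (adjusted p = 0.0188, edgeR). Sult1e1, an oestrogen sulfotransferase, stood at 2.21 in WT (adjusted p = 0.045, edgeR) with every library and at -0.45 (SE 0.42, adjusted p = 0.597, edgeR) without those 2, so its call and its direction rest on them. Near-identical copies within the Cyp2 and Cyp3a families make single P450 values uncertain.

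The batches also differed in how these targets responded to refeeding. The batch difference was negative for 23 of the 33 (median -0.50, against -0.01 over all genes). Of the 33, 4 were called, all lower, where 2.74% of all genes were called and 1% were called lower. They were Cyp3a11, the main PXR-induced P450 (-0.99, SE 0.20, adjusted p = 0.0101, edgeR), Cyp2b10 (-3.13, SE 0.75, adjusted p = 0.0242, edgeR), Alas1 (-1.20, SE 0.33, adjusted p = 0.0489, edgeR) and Thrsp (-1.40, SE 0.31, adjusted p = 0.0151, edgeR), a lipogenic gene. Within batch 1, Cyp2b10 fell by -2.96 (SE 0.51, adjusted p = 0.00246, edgeR) in WT and by -3.47 (SE 0.46, adjusted p = 0.000131, edgeR) in K556R. Within batch 2 its estimates were 0.55 (SE 0.84, adjusted p = 0.79, edgeR) and -0.74 (SE 0.92, adjusted p = 0.651, edgeR). Alas1 likewise fell in batch 1, by -1.53 (adjusted p = 0.0106, edgeR) and -1.49 (adjusted p = 0.00392, edgeR), and stood at -0.19 and -0.48 in batch 2, neither called. Cyp3a11 stood at -0.43 and -0.55 in batch 1, neither called, and in batch 2 rose by 0.52 (SE 0.15, adjusted p = 0.0341, edgeR) in K556R. Thrsp did not fall in either batch: it stood at 0.08 (adjusted p = 0.867, edgeR) in WT and rose by 0.63 (adjusted p = 0.00852, edgeR) in K556R in batch 1, and rose by 1.44 (adjusted p = 0.047, edgeR) and 2.02 (adjusted p = 0.00507, edgeR) in batch 2. Its negative batch difference is therefore a smaller rise in batch 1, unlike the falls of Nr1i2, Cyp2b10 and Alas1 there. Batch differences in refeeding were not limited to CAR and PXR targets. The same test called 2 higher and 1 lower of 18 coregulators and CAR retention proteins, and 2 lower of 22 FOXA and HNF6 targets. It called 0 of 24 other hepatocyte transcription factors and 0 of 13 RXR family members and partners. The relation between Nr1i2 and the CAR and PXR targets was not tested.

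Of 22 genes that FOXA factors or HNF6 are known to regulate, all tested, refeeding lowered 5 in WT and lowered 6 and raised 1 in K556R (medians 0.02 and -0.14). Of all genes, 5.43% were called lower in WT and 8.39% in K556R. The fasting-induced gluconeogenic enzyme Pck1 fell by -1.53 (SE 0.21, adjusted p = 1.2e-05, edgeR) and -1.65 (SE 0.20, adjusted p = 5.33e-07, edgeR). Igfbp1, an insulin-repressed secreted protein, fell by -1.56 (adjusted p = 0.0204, edgeR) and -1.52 (adjusted p = 0.0103, edgeR). Cpt1a, the gate of mitochondrial fatty acid oxidation, fell by -0.48 and -0.58 (adjusted p = 0.0131 and 0.00105, edgeR), and Tdo2, a tryptophan-degrading enzyme, fell by -0.61 in K556R (adjusted p = 0.000435, edgeR). Slc2a2, the hepatic glucose transporter, was the 1 that rose (0.32, adjusted p = 0.00782, edgeR, in K556R). These genes are targets of many other factors too.

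Among 24 tested transcription factors of hepatocytes other than the 7, refeeding raised 4 and lowered 4 in WT and raised 4 and lowered 7 in K556R (medians -0.03 and -0.05), where 10.7% and 15.4% of all genes were called. The WT counts were 2 raised and 5 lowered without the 2 libraries that stand apart, where 10.5% of all genes were called. Mlxipl, the carbohydrate-responsive factor ChREBP, rose by 0.45 and 0.50 (adjusted p = 0.0438 and 0.0136, edgeR); without those 2 libraries the WT value was 0.44 (adjusted p = 0.0537, edgeR). Ppara, the fasting-activated lipid receptor, fell by -0.67 and -0.84 (adjusted p = 0.000157 and 1.63e-06, edgeR), and Gata6 by -0.59 and -0.57 (adjusted p = 0.00736 and 0.00445, edgeR). Creb3l3, a fasting-induced hepatic factor, fell by -0.26 and -0.41 (adjusted p = 0.0295 and 0.000203, edgeR). Hnf4a, a central hepatocyte receptor, fell by -0.31 (SE 0.06, adjusted p = 0.000911, edgeR) and Prox1 by -0.31 (SE 0.09, adjusted p = 0.0118, edgeR) in K556R livers.

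RXR and its partners numbered 13 tested, of which refeeding raised 2 and lowered 1 in each genotype (medians 0.05 and 0.12), against 10.7% and 15.4% of all genes called. Ppard, a lipid-sensing receptor, rose by 0.94 and 1.48 (adjusted p = 0.000142 and 4.61e-08, edgeR), while Ppara, in this list too, fell. Rxrg, a minor isotype of RXR, rose in K556R (0.48, adjusted p = 0.00167, edgeR), opposite in direction to Rxra, and Nr1h3, the liver X receptor alpha, rose in WT (0.19, adjusted p = 0.0391, edgeR), a call lost without the 2 libraries that stand apart (0.16, adjusted p = 0.0955, edgeR). Of 18 coregulators and proteins that hold CAR in the cytoplasm, refeeding raised 3 and lowered 2 in WT and raised 1 and lowered 6 in K556R (medians -0.03 and -0.12), beside the same 10.7% and 15.4% of all genes. The chaperone Hsp90aa1, part of the cytoplasmic CAR complex, rose by 0.76 and 0.45 (adjusted p = 0.000291 and 0.0171, edgeR), and the coactivator Ppargc1b fell by -0.66 and -1.04 (adjusted p = 0.00146 and 1.65e-06, edgeR). Tbl1xr1, a subunit of corepressor complexes, fell by -0.73 and -0.90 (adjusted p = 3.01e-07 and 1.12e-09, edgeR). Averaged over feeding states, Ppp1r16a, a membrane-linked regulatory subunit of protein phosphatase 1, was the only gene of the 5 lists that edgeR called for K556R (-0.25, SE 0.05, adjusted p = 0.00683, edgeR). DESeq2 called 1 gene in each of 3 lists there: the coregulators, the FOXA and HNF6 targets, and the hepatocyte transcription factors.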

How the data were processed

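The deposited table holds whole-number read counts per Ensembl gene for 29 liver libraries, made by the authors. Per the submitters' processing notes, the tools were TopHat, STAR, STAR-Fusion, HTSeq, edgeR and DESeq2, on mm10, with no roles or versions. The annotation release and strand setting are not given in the sources used here. Of the counts, 99.92% fell in the 15603 tested genes (edgeR filterByExpr, minimum count 10, minimum total 15).

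Counts were TMM-scaled and fitted with edgeR 4.0.16 (R 4.3.3) over all 29 libraries, with 1 coefficient per genotype and feeding group plus batch. Quasi-likelihood tests were adjusted by Benjamini-Hochberg over all tested genes, with calls at 0.05. A fit with 1 mean per group and batch gave the batch differences. CPM on a log2 scale used a prior count of 2. No pair of libraries within a group agreed within sampling noise. Correlations used 100000 permutations over all 29 libraries, not within groups or batches (scipy 1.17.1). Alternatives were DESeq2 1.42.0, other scaling, no filter, no batch term, the replicate number as a block, each batch alone and leaving out each library. Scripts were tested on simulated counts. The common biological coefficient of variation between libraries, estimated by edgeR, was 0.191.

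All 7 members are named in every comparison. The 3 genes most like each were taken by Pearson r among genes of mean log2 CPM of at least 3, and from each pathway list up to 4 called genes per direction. The members and lists were chosen with earlier results of these data known. A few genes that this rule or the marker lists would name are not reported here.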

Additional observations from a re-analysis of the deposited data

Results flagged for a closer look

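In the 6 refed WT livers, Foxa1 stood at 75.77 CPM in the liver numbered 1 of batch 2, against 24.9 to 30.4 in the other 5. Nr1i2 stood at 139.3 CPM in the refed WT liver numbered 2 of batch 2, against 102 to 108 in the other 5. In both cases, on the log2 CPM scale, the gap to the nearest liver made up more of the group's range, 0.82 and 0.81, than the critical value of 0.625 for 6 samples. Such a gap arises by chance in about 1 in 20 combinations of gene and group taken singly, and 28 combinations were examined.

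The refeeding effect on Nr1i2 differed between the batches by log2 -0.663 (SE 0.13, adjusted p = 0.00644, edgeR), batch 1 minus batch 2, averaged over the genotypes.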

How the results depend on the processing

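The limits are few libraries per group, 2 batches and low Onecut1 counts, 87 to 1061 per library. Genes called for K556R in fasted livers numbered 16, and 86 by DESeq2, 33 in batch 1, 0 in batch 2, 2 without the batch term, 45 without the filter, 26 from the groups compared alone, 43 without the 2 libraries that stand apart, and 2 to 46 leaving out 1 library. In refed livers they numbered 0, and 41 by DESeq2, 5 in batch 1, 7 in batch 2, 10 without the filter and 0 to 20 leaving out 1 library. Averaged, they numbered 194, and 424 by DESeq2, 125 in batch 1, 0 in batch 2, 98 without the batch term and 116 to 309 leaving out 1 library. Refeeding calls numbered 1667 in WT (846 in batch 1, 592 in batch 2, 1322 to 1830 leaving out 1 library) and 2397 in K556R (1497 in batch 1, 2041 to 2523). The batch difference of refeeding had 428 calls, 191 to 781 leaving out 1 library. In each case the cause was not tested; a single batch holds fewer libraries.

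No pairing by replicate number was seen: 40 same-numbered pairs had correlations of -0.39 to 0.36 (median -0.03). The 117 other-numbered pairs had -0.34 to 0.39 (median -0.006). Such correlations cannot show how the animals were matched. With the replicate block, 2 genes were called in fasted livers and 92 averaged, Nr1i2 in refed livers turned to 0.012, and the refeeding calls of Foxa3 (0.39, adjusted p = 0.098, edgeR) and Nr1i2 (-0.44, adjusted p = 0.0521, edgeR) in WT and of Onecut1 (-1.236, adjusted p = 0.117, edgeR) in K556R were lost. Calls were also lost for Rxra in WT without the filter (-0.21, adjusted p = 0.0904, edgeR), for Foxa3 in WT (0.42, adjusted p = 0.0574, edgeR) and Onecut1 in K556R (-1.41, adjusted p = 0.056, edgeR) without the batch term, and for Foxa3 in WT from the groups compared alone (0.40, adjusted p = 0.107, edgeR).

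Signs turned for values that were not called. Without the filter, the Rxra batch difference of refeeding was 0.008. In batch 1 alone, the K556R estimate was -0.22 for Foxa1 fasted, and 0.074 for Foxa3 and 0.257 for Onecut1 refed. There, refeeding gave -0.23 for Foxa2 and 0.26 for Nr1i3 in WT and 0.15 for Foxa1 in K556R, and the interaction was 0.12 for Foxa1, 0.10 for Foxa2, 1.203 for Onecut1, -0.055 for Nr1i2 and 0.043 for Rxra. In batch 2 alone, K556R gave 0.014 for Foxa2 and 0.87 for Onecut1 fasted and 0.035 for Nr1i2 refed, and refeeding gave 0.65 for Onecut1 in WT and 0.10 for Nr1i2 in K556R. Without the 2 libraries that stand apart, K556R gave -0.13 for Foxa1 fasted and 0.016 for Foxa3 refed, refeeding gave -0.17 for Foxa2 and 0.053 for Nr1i3 in WT and 0.035 for Foxa2 in K556R, and the interaction was 0.21 for Foxa2 and 0.34 for Onecut1. With library means subtracted, r was 0.028 for Foxa1 and Nr1i3, 0.004 for Onecut1 and Nr1i3 and 0.089 for Nr1i3 and Rxra.

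Leaving out 1 library, the K556R estimate ran from -0.11 to 0.15 for Foxa1, -0.249 to 0.054 for Foxa2 and -0.624 to 0.093 for Onecut1 in fasted livers. In refed livers it ran from -0.192 to 0.016 for Foxa3 and -0.062 to 0.085 for Nr1i2. Refeeding ran from -0.16 to 0.18 for Foxa2 and -0.076 to 0.061 for Nr1i3 in WT and -0.301 to 0.011 for Foxa2 in K556R. The batch difference of the K556R effect ran from -0.20 to 0.27 for Foxa1, -0.038 to 0.453 for Foxa2, -0.001 to 0.177 for Foxa3, -0.338 to 0.652 for Onecut1, -0.011 to 0.114 for Nr1i2 and -0.097 to 0.063 for Nr1i3. That of refeeding ran from -0.053 to 0.412 for Foxa1 and -0.032 to 0.050 for Rxra.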
